A study of Drosophila melanogaster with 20 samples.

Results

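Ageing between 7 days and 22 to 23 days of adult life was followed in the heads of male Drosophila melanogaster heterozygous for a mutation in chameau (chm/+). Of the 20 head libraries of the study, 11 were chm/+ and enter this comparison by their column names: 5 from midlife males (CHMo2, CHMo3, CHMo11, CHMo12 and CHMo5) and 6 from young males (CHMy1, CHMy2, CHMy3, CHMy4, CHMy11 and CHMy12). The other 9 came from wild-type males, 4 at midlife and 5 young, and were used for the shared estimate of the spread and for a short comparison of genotypes. All flies were males taken from populations that held both sexes, and each library pooled the polyadenylated RNA of 25 to 30 heads. The labels give neither the allele of chm nor the origin of the wild type, so both may differ in more than chm. A value is a normalized count, the read count of a gene after the authors' adjustment for library size; it is not divided by gene length, so levels are compared between libraries and not between genes.

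The product of chm belongs to the MYST histone acetyltransferases, enzymes that transfer acetyl groups to histone lysines. The fly head holds the brain and its glia, the compound eyes with their cuticular lenses, the antennae and mouthparts, and a layer of fat body that secretes proteins into the blood. In ageing flies, rising expression of innate immune genes and falling expression of mitochondrial genes are well known, and the head fat body is one source of antimicrobial peptides.

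By midlife, chm/+ heads had more RNA of most measured antimicrobial peptides and peptidoglycan recognition proteins, and less RNA of most lens and cuticle proteins, of the prophenoloxidases PPO1 and PPO2, of the insulin-like peptides Ilp3 and Ilp5 and of some mitochondrial proteins. Of 9831 genes tested, 1572 passed an adjusted p under 0.05 in the limma fit, which is 16.0% of all. Higher levels at midlife were called for 848 genes (8.63%) and lower levels for 724 (7.36%). These shares are the background for every count of called genes given below, and a list near them stands out little from all genes. At least a 2-fold change on the log2 scale was reached by 168 of the genes that rose and by 53 of those that fell. The median log2 change of all genes was -0.009, and the median size of a called change was 0.49. Changes are log2 fold changes of midlife over young chm/+ heads, taken after adding 14.48 normalized counts to every value, an addend that understates the change of genes with low values. Because heads were sequenced in bulk, fewer cells of a type and less RNA per cell cannot be told apart in any of these results.

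The libraries did not overlap between the ages for 884 genes (8.99% of those tested), of which 821 were called. In a principal component analysis of the 11 chm/+ libraries, the first component, with 44.3% of the variance, placed the midlife libraries between -27.5 and -8.63 and the young ones between 11.6 and 23.3. CHMo12 was the midlife library nearest to the young ones. The second component, with 26.6%, separated the first 10 columns of the deposited table from the last 10. Each column set holds both ages (CHMo2 and CHMo3 with CHMy2, CHMy3 and CHMy4 in the first, the others in the second), and the labels do not say what sets them apart. All 1572 called genes changed in the same direction in both column sets. Both sets entered the fit that made these calls, so this agreement is in large part built in. With the set as a term in the fit 2203 genes were called, among them all 1572. Within the first set alone 1905 genes were called, and within the second alone 365. The column numbers 2, 3, 11 and 12 occur at both ages. Deviations from the group means correlated within same-numbered pairs at a Pearson r of 0.165 to 0.635. Each pair also lies within 1 column set, so these values alone cannot tell pairing from column set, and the pairing is an assumption. A fit of these 4 pairs with the number as a block called 844 genes, 762 of them among the 1572, and the same 8 libraries without the block gave 574. A call described as lost with the block did not pass in that smaller fit, which also leaves out CHMo5, CHMy1 and CHMy4.

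**Figure D1:**
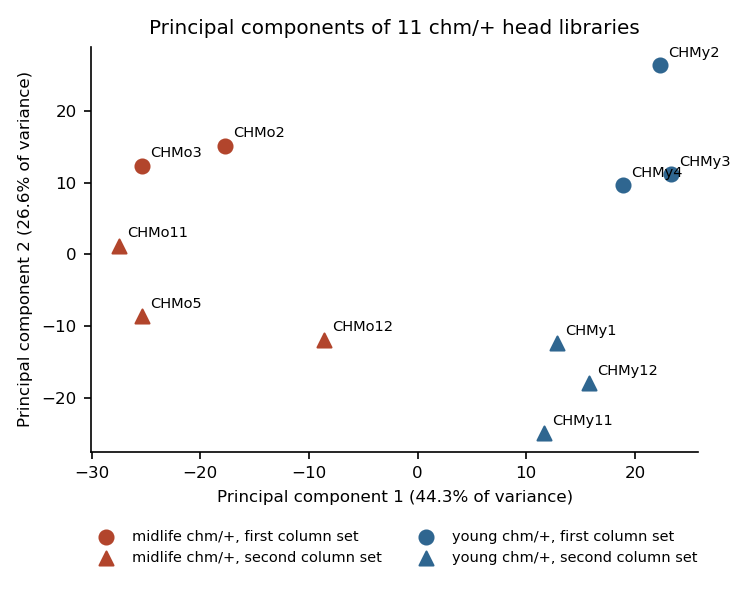
First and second principal component of the 11 chm/+ libraries (log2 of value plus addend, all genes), with midlife in red, young in blue, circles for the first and triangles for the second column set. The 5 midlife libraries lie at -8.63 or below on the first component and the 6 young ones at 11.6 or above, and the second component parts the column sets.

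As the deposited values carry no read depth, depth is unknown, and the column totals of the chm/+ libraries ran from 28594440 to 30470376 normalized counts. Head cell types were represented at both ages. The summed level of 8 neuron markers was 107374 to 174450 normalized counts in midlife and 112758 to 179040 in young chm/+ libraries. That of 16 glial genes was 91433 to 113661 at midlife and 97754 to 121288 in young heads. No gene of either list was called, but none of the 8 neuron markers had a positive log2 change (median -0.11). Of genes typical of tissues outside the head, 1 of 15 testis markers, 1 of 14 from the accessory gland, 5 of 18 from the gut and 3 of 14 from the ovary had values. The gut sum was 34481 to 61500 in midlife and 10757 to 32884 in young libraries, with most of it from the amylase genes. Of the testis, gut and ovary markers betaTub85D, Amy-p, Amy-d, mag and osk rose, betaTub85D with no call under the block (adjusted p = 0.144), and their part in the other results was not tested.

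For chm itself no change with age was called. In the order CHMo2, CHMo3, CHMo11, CHMo12 and CHMo5, as for every gene given by library, chm had 329, 304, 364, 346 and 337 normalized counts in the midlife chm/+ libraries, against 283 to 351 (median 322) in the young chm/+ libraries. The groups overlapped, the log2 change of 0.07 ± 0.07 (SE) was not called (adjusted p = 0.603), and all 5 midlife libraries lay below the lowest wild-type library, as did all 6 young ones (571.5 to 677.9 in midlife and 587.6 to 676.1 in young wild-type heads). None of the 17 measured lysine acetyltransferase genes and none of the 11 histone deacetylase and sirtuin genes was called, with list medians of 0.01 and -0.002.

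**Figure D2:**
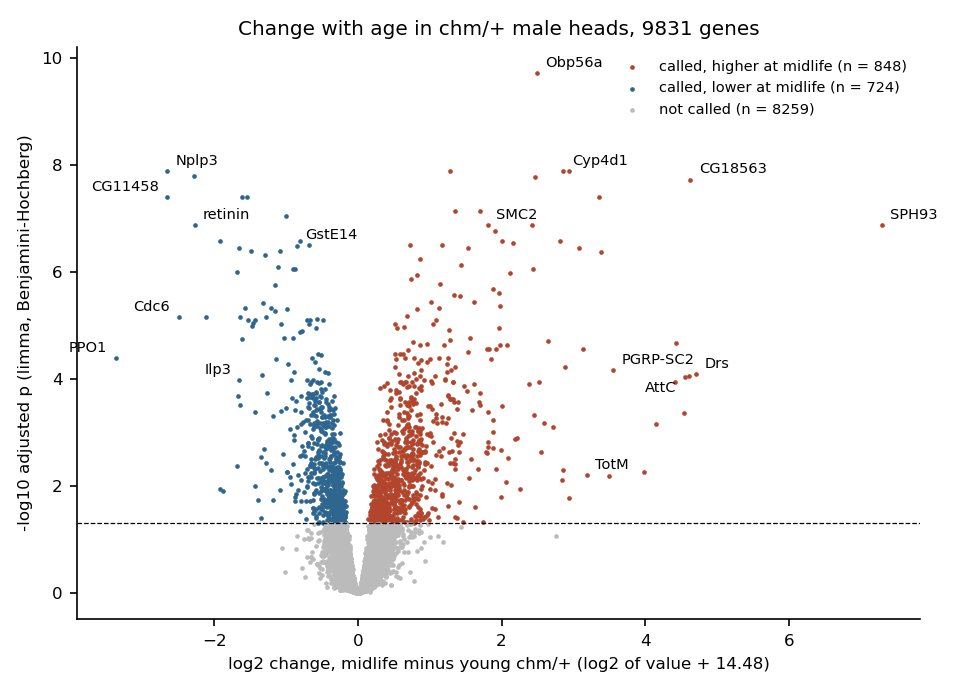
Log2 change with age in chm/+ heads (x axis, midlife minus young) against -log10 of the adjusted p (y axis) for each of 9831 genes, with genes called higher at midlife in red (848), called lower in blue (724) and not called in grey. The dashed line marks an adjusted p of 0.05, and the labelled genes include SPH93, the table's CG6639, at a log2 change of 7.29.

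Antimicrobial peptides, secreted by the fat body and epithelia to kill bacteria and fungi, had the highest median of the lists examined. Of 16 measured, 13 rose and 1 fell, against 8.63% and 7.36% of all genes, and the list median was 3.74 (4.29 and 3.31 within the first and second column sets). Drs (drosomycin), an antifungal peptide induced by the Toll pathway, had 15575, 35157, 33824, 8035 and 13341 normalized counts in the midlife chm/+ libraries, against 467 to 863 (median 689) in the young chm/+ libraries. Every midlife library was above every young one, at a log2 fold change of 4.71 ± 0.68 (SE, adjusted p = 8.22e-05). AttC, an attacin active against Gram-negative bacteria, had 18902, 46297, 54328, 10786 and 17661 normalized counts in the midlife chm/+ libraries, against 766 to 2576 (median 833) in the young chm/+ libraries. Its log2 fold change was 4.55 ± 0.66 (SE, adjusted p = 9.18e-05), with 4.66 in the first and 4.54 in the second column set. The midlife libraries again lay above all young ones, although they differed among themselves by more than the young libraries did.

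Further members rose as well: Dro (drosocin) by a log2 fold change of 4.43 ± 0.57 (SE, adjusted p = 2.11e-05), Mtk (metchnikowin) by 4.14 ± 0.75 (SE, adjusted p = 0.000706), DptB by 4.54 ± 0.78 (SE, adjusted p = 0.000442) and AttD by 2.52 ± 0.38 (SE, adjusted p = 0.000114). AttA (log2 fold change 4.61) and AttB (4.42) are near-identical copies, as are CecA1 (3.49) and CecA2 (2.95), and reads may be split between them, so their single values are uncertain. CecC, a cecropin at far lower values, had 80.6, 330.3, 153, 69.2 and 135 normalized counts in the midlife chm/+ libraries, against 3.06 to 52.1 (median 13.1) in the young chm/+ libraries. The ages did not overlap, and the log2 fold change was 2.26 ± 0.59 (SE, adjusted p = 0.0115). The calls for CecB (log2 fold change 2.00) and CecA2 ended in fits without single libraries (highest adjusted p = 0.0529 without CHMo3, and 0.0598 without CHMo3). Drsl4, a drosomycin-like gene, went the other way, with 1879, 1807, 893, 1626 and 2006 normalized counts in the midlife chm/+ libraries, against 1911 to 3976 (median 2959.5) in the young chm/+ libraries. CHMo5 lay within the young range, and Drsl4 fell with a log2 fold change of -0.86 ± 0.23 (SE, adjusted p = 0.0139). Def (log2 fold change 0.94) and Drsl5 (-0.43) were not called.

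Peptidoglycan recognition proteins bind bacterial cell wall. Some start the Toll and Imd signalling pathways, and the amidases among them cut peptidoglycan and damp Imd signalling. Of 9 measured, 7 rose and none fell, and the list median was 0.87. The amidase gene PGRP-SC2 had 1554, 3332, 3911, 350.1 and 2319 normalized counts in the midlife chm/+ libraries, against 75.8 to 189 (median 138) in the young chm/+ libraries. All midlife libraries were above all young ones, but CHMo12 stood far below the other 4 midlife libraries, and the log2 fold change was 3.55 ± 0.50 (SE, adjusted p = 6.88e-05). PGRP-SB1, another amidase, had 9704, 19829, 18540.2, 4056 and 6863 normalized counts in the midlife chm/+ libraries, against 2210.1 to 3228 (median 2789) in the young chm/+ libraries. PGRP-SB1 rose without overlap of the ages, by a log2 fold change of 1.88 ± 0.35 (SE, adjusted p = 0.000985). PGRP-LF, a membrane protein that inhibits Imd signalling, rose by a log2 fold change of 0.96 ± 0.13 (SE, adjusted p = 4.75e-05), PGRP-SD by 0.93 ± 0.21 (SE, adjusted p = 0.00381) and the amidase PGRP-LB by 0.87 ± 0.24 (SE, adjusted p = 0.0146). PGRP-LC, the main Imd receptor, rose by a log2 fold change of 0.24 ± 0.07 (SE, adjusted p = 0.0267). PGRP-SA, which senses bacteria for the Toll pathway, had 1199.8, 1707, 1590.5, 524 and 1649 normalized counts in the midlife chm/+ libraries, against 604 to 942 (median 633) in the young chm/+ libraries. Its groups overlapped through CHMo12, its adjusted p of 0.0496 rose to as much as 0.136 without CHMo2, CHMo3, CHMy4, CHMo11, CHMo5, CHMy1, CHMy11 or CHMy12, and that of PGRP-LC to 0.0806 without CHMo2, CHMo3, CHMy3, CHMy4 or CHMo11. With the column numbers as a block, adjusted p was 0.154 for PGRP-SA and 0.0571 for PGRP-LC. PGRP-LA (log2 fold change -0.10) and PGRP-LE (0.09) were not called.

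Among Bomanins and other short immune-induced peptides, many of them Toll targets, 10 of 16 rose and none fell, with a median of 0.89 (1.40 and 0.63 within the column sets). With the block 8 of the 10 stayed called, and 6 were called in every fit that left out 1 library. IM23 (BomBc1) had 5067, 8936, 10882, 3876 and 1873 normalized counts in the midlife chm/+ libraries, against 354 to 1205 (median 720.1) in the young chm/+ libraries. IM23 rose by a log2 fold change of 2.89 ± 0.41 (SE, adjusted p = 5.99e-05). IM1 (BomS1) had 11193, 22708, 13974, 8801 and 8664 normalized counts in the midlife chm/+ libraries, against 3384 to 7188 (median 4286) in the young chm/+ libraries. IM1 rose by a log2 fold change of 1.47 ± 0.28 (SE, adjusted p = 0.00107). In both genes the ages did not overlap, and CHMo5 had the lowest midlife value. IM10 and CG33470 (BaraA1) carried nearly the same values in every library (log2 fold change 1.32 and 1.32), so they cannot be treated as separate observations. The steepest change of any gene was that of CG6639 (SPH93), a serine protease homologue, which had 8520.2, 17764, 24113, 3281 and 13861 normalized counts in the midlife chm/+ libraries, against 19.1 to 271 (median 38.9) in the young chm/+ libraries. Its log2 fold change was 7.29 ± 0.62 (SE, adjusted p = 1.35e-07), with 8.07 in the first and 6.56 in the second column set. CG18563 also rose steeply, with 699, 1215, 1156, 308 and 994 normalized counts in the midlife chm/+ libraries, against 6.16 to 50.3 (median 12.9) in the young chm/+ libraries. The log2 fold change of CG18563 was 4.63 ± 0.33 (SE, adjusted p = 1.89e-08).

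RNA of the signalling genes themselves changed less. In the Toll pathway 6 of 18 genes rose and none fell (median 0.13), and in the Imd pathway 2 of 16 rose and none fell (median 0.04), against 8.63% of all genes that rose. The Imd share is close to that background. Hayan, a serine protease of the Toll and melanization cascades, had 1251, 1739, 1607, 1028 and 1442 normalized counts in the midlife chm/+ libraries, against 624 to 1015 (median 832) in the young chm/+ libraries. Hayan rose by a log2 fold change of 0.77 ± 0.15 (SE, adjusted p = 0.00136). The NF-kappaB factor gene dl rose by a log2 fold change of 0.36 ± 0.07 (SE, adjusted p = 0.00166). The remaining Toll calls, for Myd88, psh, cact and spirit, were lost with the column numbers as a block (adjusted p = 0.169, 0.247, 0.234 and 0.0675). In the Imd pathway, Rel, its NF-kappaB factor, had 6527, 7986, 8077, 5043 and 6757 normalized counts in the midlife chm/+ libraries, against 3393 to 4640.0 (median 3975) in the young chm/+ libraries. Rel rose by a log2 fold change of 0.78 ± 0.13 (SE, adjusted p = 0.000241). pirk, a feedback inhibitor of the Imd receptors, had 799.9, 1086, 953, 698 and 639 normalized counts in the midlife chm/+ libraries, against 354 to 444 (median 404) in the young chm/+ libraries. pirk rose by a log2 fold change of 1.01 ± 0.11 (SE, adjusted p = 3.71e-06). For Hayan, Rel and pirk all midlife libraries lay above all young ones. The Imd adaptor imd (log2 fold change 0.07), Dredd (0.16) and key (0.18) were not called.

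Turandot peptides are secreted under stress and infection. Of the 10 measured genes of JAK-STAT signalling and Turandot peptides, 4 rose and none fell, all 4 of them Turandots, while hop (log2 fold change 0.05), Stat92E (0.03) and Socs36E (0.02) were not called. TotM had 1518, 1281, 7648, 137 and 5058 normalized counts in the midlife chm/+ libraries, against 86.9 to 703 (median 133) in the young chm/+ libraries. TotC had 13239, 10164, 40753, 1496 and 40278 normalized counts in the midlife chm/+ libraries, against 1172 to 2804 (median 1648) in the young chm/+ libraries. In both genes CHMo12 lay within the range of the young libraries and the other 4 midlife libraries did not; the log2 fold changes were 3.19 ± 0.76 (SE, adjusted p = 0.00622) for TotM and 2.85 ± 0.66 (SE, adjusted p = 0.00503) for TotC. TotA (log2 fold change 1.39) and TotB (1.03) were no longer called with the column numbers as a block (adjusted p = 0.144 and 0.0738), and TotA also not without CHMo2, CHMo3, CHMy2, CHMy3, CHMy4, CHMo11, CHMo5 or CHMy12 (highest adjusted p = 0.136).

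**Figure D3:**
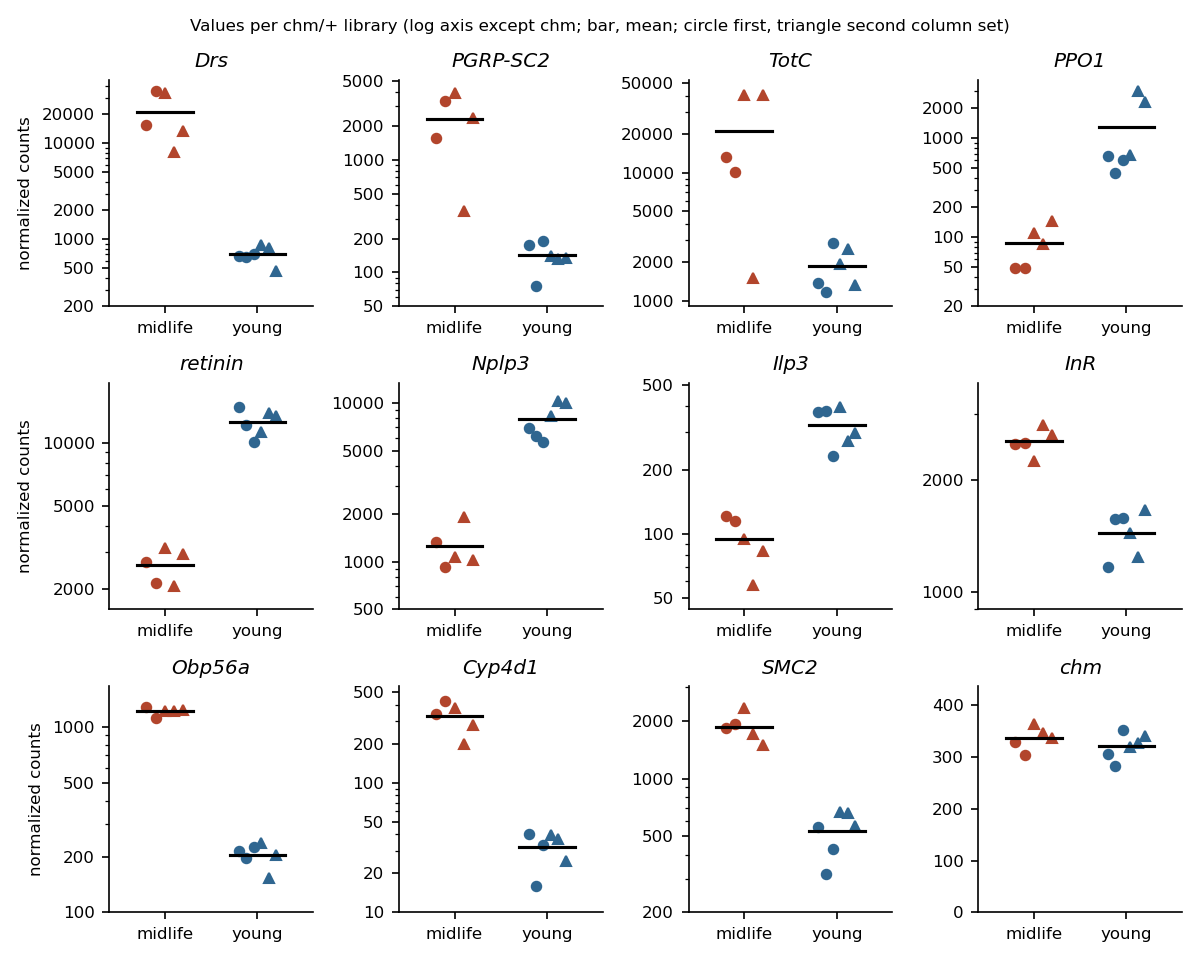
Normalized counts of 12 genes in each of the 11 chm/+ libraries, midlife on the left in red and young on the right in blue, with a bar at the mean, circles for the first and triangles for the second column set (log axis for all but chm). Drs lies above its young values in every midlife library, PPO1 and Ilp3 lie below theirs, CHMo12 is the lowest midlife library for PGRP-SC2 and TotC, and chm overlaps between the ages.

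The prophenoloxidase genes PPO1 and PPO2 fell. Prophenoloxidases, made by the crystal cells of the blood, oxidize phenols to form melanin at wounds. PPO1 had 48.6, 48.4, 110.2, 85.8 and 146 normalized counts in the midlife chm/+ libraries, against 447 to 2983 (median 674) in the young chm/+ libraries. No library overlapped, at a log2 fold change of -3.37 ± 0.46 (SE, adjusted p = 4.03e-05); the young values of CHMy11 and CHMy12 were the 2 highest. PPO2 had 571, 510.5, 628, 559 and 487 normalized counts in the midlife chm/+ libraries, against 813 to 2677 (median 1228) in the young chm/+ libraries. PPO2 fell also without overlap of the ages, with a log2 fold change of -1.31 ± 0.27 (SE, adjusted p = 0.00207). Of the 11 genes of melanization, 3 rose and 3 fell: yellow-f, a melanin-forming enzyme, rose by a log2 fold change of 0.77 ± 0.15 (SE, adjusted p = 0.00155), and the serpins Spn27A and Spn77Ba rose by 0.35 and 0.30, both not called with the block (adjusted p = 0.156 and 0.113). Without CHMo2, CHMo3, CHMy4, CHMo11, CHMo5, CHMy1, CHMy11 or CHMy12, Spn27A was not called either (highest adjusted p = 0.110), nor was Spn77Ba without CHMy4, CHMo11 or CHMo5 (highest 0.0767). Ddc, a decarboxylase needed for cuticle pigment and for dopamine, fell with a log2 fold change of -0.31 ± 0.07 (SE, adjusted p = 0.00351), with an adjusted p of 0.0625 under the block. lz, the crystal cell transcription factor, was not called (log2 fold change 0.14, adjusted p = 0.822).

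Most markers of blood cells in general were not called. Of 14 haemocyte markers, 3 rose and 1 fell, while Hml (log2 fold change 0.29), NimC1 (0.37) and eater (0.17) were not called. Their summed level was 58392 to 73679 normalized counts in midlife and 47593 to 54715 in young libraries, so that the sums did not overlap; part of this sum is Fer1HCH, a ferritin gene, which had 34108 ± 3044 normalized counts at midlife and 24840.1 ± 2220.2 in young chm/+ heads (SD, n = 5 and 6). The part of blood cell number in the immune results was not tested. NimC4, a phagocytosis receptor also used by glia, had 124, 101, 105, 7.86 and 189.5 normalized counts in the midlife chm/+ libraries, against 8.02 to 19.8 (median 13.8) in the young chm/+ libraries. Its log2 fold change was 1.78 ± 0.37 (SE, adjusted p = 0.00227), with CHMo12 below every young library. With the column numbers as a block no call in this list remained (adjusted p = 0.0661 for Fer1HCH, 0.0836 for NimC4, 0.0998 for drpr and 0.0501 for Pxn), and the fall of Pxn was not called without CHMo3, CHMy2, CHMy3, CHMy4, CHMo12 or CHMo5 (highest adjusted p = 0.0778).

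Most lens genes fell. The corneal lens of the compound eye is secreted by cone and pigment cells and consists of a few abundant proteins. Of 5 measured lens genes, 4 fell and 1 rose, with a median of -1.43. retinin had 2699.5, 2132, 3142, 2080.5 and 2957 normalized counts in the midlife chm/+ libraries, against 10019.7 to 14799.6 (median 12765) in the young chm/+ libraries. The ages were far apart, at a log2 fold change of -2.27 ± 0.19 (SE, adjusted p = 1.35e-07), with -2.34 in the first and -2.24 in the second column set. Cry, the lens crystallin gene (Crys in current annotation, unrelated to cryptochrome), had 79.3, 78, 75.6, 44.7 and 51.2 normalized counts in the midlife chm/+ libraries, against 178 to 343 (median 309.7) in the young chm/+ libraries. Cry fell with a log2 fold change of -1.93 ± 0.17 (SE, adjusted p = 2.65e-07). Cpr66D had 47.3, 38, 28.8, 35 and 22.5 normalized counts in the midlife chm/+ libraries, against 61 to 197 (median 125) in the young chm/+ libraries. Cpr66D fell with a log2 fold change of -1.43 ± 0.25 (SE, adjusted p = 0.000416), and Cpr97Eb fell with -0.47 ± 0.12 (SE, adjusted p = 0.00807), with no call under the block (adjusted p = 0.145). Cpr72Ec rose instead, with 6899.5, 6715, 4737, 4491 and 3478 normalized counts in the midlife chm/+ libraries, against 1528 to 3353 (median 2569) in the young chm/+ libraries. Cpr72Ec rose by a log2 fold change of 1.04 ± 0.18 (SE, adjusted p = 0.000371). In all 5 genes the midlife libraries did not overlap the young ones.

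More genes of cuticle proteins, the chitin-binding proteins of the exoskeleton, fell than rose. Of 32 measured, 18 fell and 5 rose, against 7.36% and 8.63% of all genes, with a median of -0.49 (-0.49 and -0.34 within the column sets). With the block 11 of the 18 falls stayed called. Cpr49Ae averaged 829.9 ± 142 normalized counts at midlife and 1762 ± 204 in young chm/+ heads (SD, n = 5 and 6), at a log2 fold change of -1.08 ± 0.10 (SE, adjusted p = 3.99e-07). Cpr49Ag fell with a log2 fold change of -1.43 ± 0.17 (SE, adjusted p = 7.96e-06), Cpr47Ee with -1.14 ± 0.16 (SE, adjusted p = 4.31e-05) and Cpr62Bb with -0.53 ± 0.08 (SE, adjusted p = 0.000206). Ccp84Ag had 2.06, 3.06, 2.83, 0.0221 and 0.0233 normalized counts in the midlife chm/+ libraries, against 6.95 to 99 (median 42.3) in the young chm/+ libraries. Ccp84Ag fell with a log2 fold change of -1.69 ± 0.38 (SE, adjusted p = 0.00422); its midlife values are close to 0, so the log2 change understates the difference. Among those that rose, Edg91 averaged 35.2 ± 12.6 normalized counts at midlife and 9.71 ± 1.45 in young chm/+ heads (SD, n = 5 and 6), at a log2 fold change of 1.00 ± 0.19 (SE, adjusted p = 0.00101), and TwdlT rose by 0.71 ± 0.18 (SE, adjusted p = 0.00988), not called with the block (adjusted p = 0.106). Lcp65Ag1, Lcp65Ag2 and Lcp65Ag3 are near-identical and fell with a log2 fold change of -0.73, -0.70 and -0.75, so their single values are uncertain; none of the 3 was called with the block (adjusted p = 0.0860, 0.0944 and 0.0502).

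In the photoreceptors the change was smaller and mixed. Of 33 phototransduction genes 2 rose and 7 fell (median -0.13), and the main rhodopsin gene ninaE (-0.05), trp (-0.11) and ninaC (-0.21) were not called. Rh4, an ultraviolet opsin of the R7 cells, had 111250.3, 108730.0, 108229, 97342 and 74625 normalized counts in the midlife chm/+ libraries, against 59129 to 82603 (median 68822) in the young chm/+ libraries. CHMo5 lay within the young range and the other midlife libraries above it, at a log2 fold change of 0.53 ± 0.12 (SE, adjusted p = 0.00300). Its counterpart Rh3 rose by a log2 fold change of 0.41 ± 0.12 (SE, adjusted p = 0.0206), not called with the block (adjusted p = 0.0819) nor without CHMo2, CHMo3, CHMy3 or CHMy12 (highest 0.0665). Pdh, a retinal pigment cell dehydrogenase that handles the visual chromophore, had 22864, 21234, 22719, 23316 and 15443 normalized counts in the midlife chm/+ libraries, against 27595 to 39554 (median 33323) in the young chm/+ libraries. Pdh fell without overlap of the ages, with a log2 fold change of -0.67 ± 0.12 (SE, adjusted p = 0.000683). The sodium-calcium exchanger gene Calx fell with a log2 fold change of -0.50 ± 0.08 (SE, adjusted p = 0.000179), eys, which opens the space between rhabdomeres, with -0.59 ± 0.10 (SE, adjusted p = 0.000374), Gbeta76C, the beta subunit of the visual G protein, with -0.44 ± 0.09 (SE, adjusted p = 0.00173), and the scaffold gene inaD with -0.50 ± 0.11 (SE, adjusted p = 0.00367). rdhB, a retinol dehydrogenase outside the list that was among the 10 falling genes with the smallest p, fell with a log2 fold change of -0.68 ± 0.06 (SE, adjusted p = 3.19e-07).

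Chemosensory genes moved singly. Odorant-binding proteins are small carriers secreted into sensilla, and some are made in fat body or glia. Of 25 measured, 3 rose and 5 fell (median -0.04). Obp56a, the gene with the smallest p of all, had 1274, 1109, 1218, 1216 and 1232 normalized counts in the midlife chm/+ libraries, against 153 to 236 (median 209) in the young chm/+ libraries. The midlife libraries differed little among themselves and stood far above the young ones, at a log2 fold change of 2.49 ± 0.12 (SE, adjusted p = 1.93e-10), with 2.41 in the first and 2.56 in the second column set. Obp44a had 4697, 3506, 3657, 9801 and 5761 normalized counts in the midlife chm/+ libraries, against 12144 to 22083 (median 16171) in the young chm/+ libraries. The ages did not overlap, at a log2 fold change of -1.67 ± 0.27 (SE, adjusted p = 0.000212), and CHMo12 had the highest midlife value. Obp56g fell with a log2 fold change of -0.90 ± 0.20 (SE, adjusted p = 0.00382) and Obp99b with -0.87 ± 0.24 (SE, adjusted p = 0.0158).

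Of 30 chemoreceptor genes, 4 rose and 2 fell (median 0.08). Gr59f, a gustatory receptor gene, had 96.9, 105, 126, 66 and 166 normalized counts in the midlife chm/+ libraries, against 2.70 to 14.1 (median 7.38) in the young chm/+ libraries. All midlife libraries were above all young ones, at a log2 fold change of 2.46 ± 0.17 (SE, adjusted p = 1.68e-08), and Gr59e, a gustatory receptor gene of the same cytological interval, rose by 1.88 ± 0.20 (SE, adjusted p = 2.13e-06). A pair of olfactory ionotropic receptor genes also rose: Ir75a averaged 1148 ± 109.6 normalized counts at midlife and 687 ± 156 in young chm/+ heads (SD, n = 5 and 6), at a log2 fold change of 0.75 ± 0.14 (SE, adjusted p = 0.00108), and Ir75b averaged 740.4 ± 69.7 normalized counts at midlife and 494 ± 43.2 in young chm/+ heads (SD, n = 5 and 6), at 0.57 ± 0.10 (SE, adjusted p = 0.000445). Or45b fell with a log2 fold change of -0.61 ± 0.14 (SE, adjusted p = 0.00566) and Ir54a with -0.71 ± 0.18 (SE, adjusted p = 0.0106).

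Of 23 genes of insulin and TOR signalling 3 rose and 2 fell. The insulin-like peptides Ilp3 and Ilp5 are made in a small group of brain cells and act on growth and metabolism through InR. Ilp3 had 122, 115, 95.1, 57.5 and 83 normalized counts in the midlife chm/+ libraries, against 233 to 393 (median 336) in the young chm/+ libraries. Ilp5 had 646, 575, 648, 672 and 448 normalized counts in the midlife chm/+ libraries, against 1010.5 to 1399 (median 1056) in the young chm/+ libraries. Both fell without overlap, with a log2 fold change of -1.65 ± 0.24 (SE, adjusted p = 0.000107) for Ilp3 and -0.93 ± 0.14 (SE, adjusted p = 0.000107) for Ilp5. InR had 2501, 2504, 2244, 2797 and 2642 normalized counts in the midlife chm/+ libraries, against 1166 to 1660.3 (median 1505) in the young chm/+ libraries. It rose without overlap, by a log2 fold change of 0.82 ± 0.14 (SE, adjusted p = 0.000481), with 0.81 in the first and 0.82 in the second column set. Thor, which encodes the translation repressor 4E-BP, rose by a log2 fold change of 0.72 ± 0.13 (SE, adjusted p = 0.000493) and Pi3K92E, the catalytic subunit of PI3-kinase, by 0.36 ± 0.06 (SE, adjusted p = 0.000133). The other 18 genes were not called, and the list median was 0.09.

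Of 31 neuropeptide precursor genes, 4 rose and 3 fell (median 0.02). Nplp3 had 1319, 921, 1062, 1901 and 1022 normalized counts in the midlife chm/+ libraries, against 5627 to 10247 (median 7599) in the young chm/+ libraries. Nplp3 fell with a log2 fold change of -2.66 ± 0.18 (SE, adjusted p = 1.31e-08); CHMo12 had the highest midlife value, still below all young ones. SIFa, a peptide of a few large brain neurons known for its role in courtship and feeding, had 165, 129, 147, 122 and 83.2 normalized counts in the midlife chm/+ libraries, against 208 to 317 (median 241) in the young chm/+ libraries. SIFa fell without overlap of the ages, with a log2 fold change of -0.88 ± 0.15 (SE, adjusted p = 0.000388). Crz (corazonin), a stress and metabolic peptide, had 2641, 2225, 2517, 1934 and 1629 normalized counts in the midlife chm/+ libraries, against 1175 to 1505 (median 1290.0) in the young chm/+ libraries. Crz rose without overlap of the ages, by a log2 fold change of 0.72 ± 0.11 (SE, adjusted p = 0.000134). FMRFa rose by a log2 fold change of 0.69 ± 0.13 (SE, adjusted p = 0.00119), CG13565 (Orcokinin) by 0.56 ± 0.11 (SE, adjusted p = 0.00130) and Ms (myosuppressin) by 0.38 ± 0.10 (SE, adjusted p = 0.00869), while CCHa2, a nutrient-dependent peptide, fell with -0.55 ± 0.12 (SE, adjusted p = 0.00265). All 7 calls held with the block and in every fit that left out 1 library.

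Juvenile hormone, a lipid hormone, is made by Jhamt and degraded by esterases and epoxide hydrolases. Of 9 measured genes 3 rose and 1 fell. jhamt had 100.1, 132, 163, 125 and 113 normalized counts in the midlife chm/+ libraries, against 42.6 to 73.6 (median 53.2) in the young chm/+ libraries. jhamt rose without overlap of the ages, by a log2 fold change of 1.01 ± 0.14 (SE, adjusted p = 4.32e-05). The esterase gene Jhe had 187, 226, 139, 56.6 and 331 normalized counts in the midlife chm/+ libraries, against 43.4 to 79.6 (median 59.8) in the young chm/+ libraries. Jhe rose by a log2 fold change of 1.26 ± 0.37 (SE, adjusted p = 0.0236), with CHMo12 inside the young range. The Jhe call was lost with the block (adjusted p = 0.103) and without CHMo2, CHMo3 or CHMo5 (highest 0.0822). Jhedup rose by a log2 fold change of 1.25 ± 0.31 (SE, adjusted p = 0.00879) and Jheh3, an epoxide hydrolase gene, fell with -0.41 ± 0.09 (SE, adjusted p = 0.00503). The receptor genes Met (log2 fold change 0.02) and gce (-0.04) were not called.

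Calls among genes of neurotransmission were mostly falls of small size. Falls were called for 5 of 22 presynaptic release genes (median -0.22), 4 of 14 cholinergic genes (-0.19), 5 of 22 GABA and glutamate genes (-0.17), 6 of 25 monoamine genes (-0.19) and 3 of 25 ion channel genes (-0.10), against 7.36% of all genes. Of these falls, 2, 0, 2, 1 and 0 stayed called with the block. Rises numbered 0, 1, 2, 1 and 0 in the same lists. Gad1, the enzyme that makes GABA, had 9025, 9276, 9214, 11997 and 10506 normalized counts in the midlife chm/+ libraries, against 12704 to 16702 (median 15117) in the young chm/+ libraries. The ages did not overlap, at a log2 fold change of -0.59 ± 0.09 (SE, adjusted p = 0.000223), and VGAT, the vesicular GABA transporter gene, fell with -0.41 ± 0.06 (SE, adjusted p = 0.000122). comt, the NSF protein that recycles vesicle fusion complexes, fell with a log2 fold change of -0.42 ± 0.06 (SE, adjusted p = 7.70e-05) and Rop, a Sec1/Munc18 protein of vesicle fusion, with -0.36 ± 0.08 (SE, adjusted p = 0.00417). Pu, whose enzyme starts the synthesis of the cofactor for dopamine and serotonin synthesis, fell with a log2 fold change of -0.59 ± 0.07 (SE, adjusted p = 1.13e-05). ple, tyrosine hydroxylase, had 1139, 849.5, 1135, 1262 and 1180.5 normalized counts in the midlife chm/+ libraries, against 1322 to 1633 (median 1562) in the young chm/+ libraries. ple fell without overlap of the ages, with a log2 fold change of -0.47 ± 0.10 (SE, adjusted p = 0.00303), with an adjusted p of 0.0532 under the block. The neuron markers elav (-0.04), brp (-0.20) and Syt1 (-0.31) were not called.

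**Figure D4:**
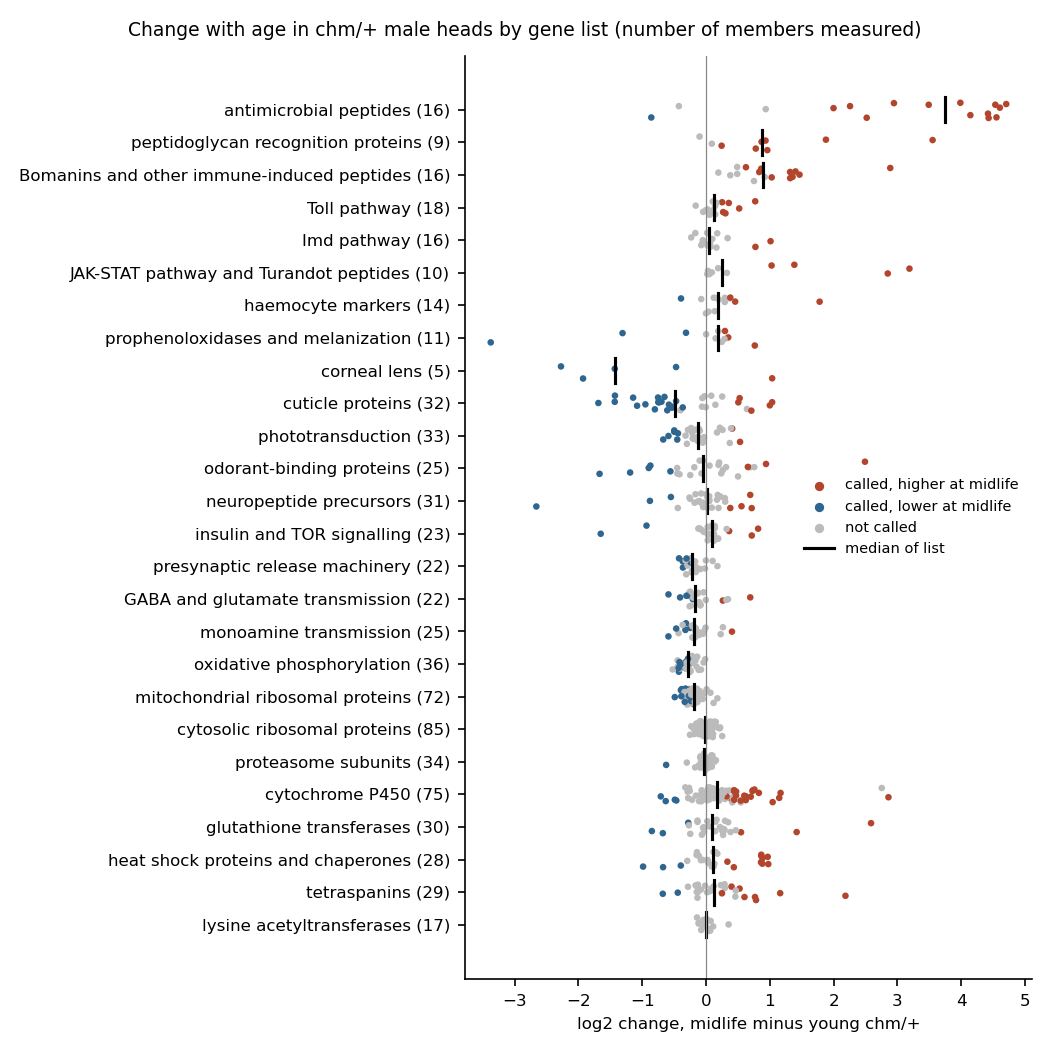
Log2 change with age in chm/+ heads (x axis, midlife minus young) of each measured member of 26 gene lists (rows, with the number of members), red where called higher at midlife, blue where called lower and grey where not called; the black bar is the list median. The antimicrobial peptides have a median of 3.74 and the corneal lens genes of -1.43, while the oxidative phosphorylation genes all lie below 0.

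Some nuclear genes for mitochondrial proteins fell at midlife by small amounts. Oxidative phosphorylation makes ATP from the transfer of electrons to oxygen. Of 36 measured genes of this process none had a positive log2 change, 12 fell (7.36% of all genes fell), and the median was -0.27, against -0.009 over all genes (-0.27 and -0.29 within the column sets). Cyt-c-p, the electron carrier cytochrome c, had 4852, 5138, 4879, 4655 and 4488 normalized counts in the midlife chm/+ libraries, against 5669 to 7295 (median 6299) in the young chm/+ libraries. The ages did not overlap, at a log2 fold change of -0.41 ± 0.07 (SE, adjusted p = 0.000638). CoVb, a cytochrome c oxidase subunit, fell with a log2 fold change of -0.31 ± 0.08 (SE, adjusted p = 0.00729), mtacp1, an acyl carrier protein of complex I, with -0.28 ± 0.07 (SE, adjusted p = 0.0123), and CG4769 (Cyt-c1), of complex III, with -0.24 ± 0.05 (SE, adjusted p = 0.00354), the last not called with the block (adjusted p = 0.0924). sesB, the ADP/ATP translocase that exports ATP, had 33583, 36349.5, 32773, 38184 and 37004 normalized counts in the midlife chm/+ libraries, against 40735 to 59289.6 (median 45970.4) in the young chm/+ libraries. sesB fell without overlap of the ages, with a log2 fold change of -0.40 ± 0.11 (SE, adjusted p = 0.0142), with an adjusted p of 0.0780 under the block. Of the 12 falls, 6 stayed called with the block. The number of falls was 6 without CHMy2, CHMy3, CHMo12 or CHMo5, 5 without both CHMy2 and CHMo12, and 19 with the column set as a term.

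Of 72 mitochondrial ribosomal protein genes, 14 fell and none rose, against 7.36% and 8.63% of all genes, with a median of -0.19, and 4 had a positive log2 change. mRpS9 averaged 1016 ± 68.5 normalized counts at midlife and 1337 ± 150.2 in young chm/+ heads (SD, n = 5 and 6), at a log2 fold change of -0.39 ± 0.08 (SE, adjusted p = 0.00161); mRpS10 fell with a log2 fold change of -0.38 ± 0.10 (SE, adjusted p = 0.0136) and mRpS18C with -0.39 ± 0.10 (SE, adjusted p = 0.0121). These were the 3 falls that stayed called with the block, and the count was 9 without CHMy3, CHMo11 or CHMy11, 8 without CHMo12 and 7 without CHMo5. None of the 85 cytosolic ribosomal protein genes was called, and their median was -0.02.

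Central metabolism held single changes. Of 23 genes of acetyl-CoA and the TCA cycle, 1 rose and 3 fell (median -0.14), and of 16 glycolytic genes 1 rose and 1 fell. kdn, citrate synthase, had 9753, 9649, 7498, 9880.2 and 7849 normalized counts in the midlife chm/+ libraries, against 9643 to 15862 (median 12671) in the young chm/+ libraries. kdn fell with a log2 fold change of -0.52 ± 0.14 (SE, adjusted p = 0.0173), with no call without CHMo11 or CHMo5 (highest adjusted p = 0.0568); CHMo2, CHMo3 and CHMo12 lay within the young range. Men-b, a malic enzyme, averaged 4328 ± 613 normalized counts at midlife and 5947 ± 521 in young chm/+ heads (SD, n = 5 and 6), at a log2 fold change of -0.46 ± 0.08 (SE, adjusted p = 0.000505). Gpdh, glycerol-3-phosphate dehydrogenase, averaged 18325 ± 2045 normalized counts at midlife and 25214 ± 2132 in young chm/+ heads (SD, n = 5 and 6), at a log2 fold change of -0.46 ± 0.09 (SE, adjusted p = 0.00103). CG1516 (PCB), pyruvate carboxylase, rose by a log2 fold change of 0.39 ± 0.09 (SE, adjusted p = 0.00710) and Hex-A, a hexokinase, by 0.23 ± 0.05 (SE, adjusted p = 0.00477), both without a call under the block (adjusted p = 0.111 and 0.201).

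Fat body products went both ways. Of 16 secreted and storage proteins typical of fat body, 3 rose and 4 fell, and their summed level was 562031 to 777484 normalized counts in midlife and 637401 to 1043380 in young libraries. The hexamerins Lsp1alpha, Lsp1beta and Lsp2 store amino acids in the blood of larvae, and Lsp2 is also made by the adult head fat body. Lsp1beta had 4709, 3118, 5034, 6703 and 4670.4 normalized counts in the midlife chm/+ libraries, against 11126 to 29694 (median 21416) in the young chm/+ libraries. Lsp1beta fell without overlap of the ages, with a log2 fold change of -2.11 ± 0.25 (SE, adjusted p = 7.05e-06). Lsp1alpha had 7499.7, 8908, 12231, 6612 and 10688 normalized counts in the midlife chm/+ libraries, against 905 to 4662 (median 2715) in the young chm/+ libraries. Lsp1alpha went the opposite way, again without overlap, and rose by a log2 fold change of 1.81 ± 0.31 (SE, adjusted p = 0.000414). Lsp2 had 128864, 64246, 181758, 294594 and 63647 normalized counts in the midlife chm/+ libraries, against 195454 to 487464 (median 318491) in the young chm/+ libraries. Lsp2 fell with a log2 fold change of -1.39 ± 0.39 (SE, adjusted p = 0.0179). CHMo12 was inside the young range of Lsp2, and the call was lost without CHMo3 or CHMo5 (highest adjusted p = 0.0636). Apoltp, a lipid transfer protein, rose by a log2 fold change of 0.80 ± 0.12 (SE, adjusted p = 9.87e-05), whereas the main lipid carrier gene Rfabg was not called (0.14, adjusted p = 0.836). The yolk protein genes Yp1 (log2 fold change 0.46), Yp2 (0.45) and Yp3 (0.37) were not called. Yp1 had 293 to 520 normalized counts in midlife and 90.8 to 2716 in young chm/+ libraries, so its missing call says little. The cause of this spread was not tested.

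Of 21 genes of fat storage and its breakdown, 2 rose and 1 fell (median 0.09). bmm, the main triglyceride lipase of fat cells, had 8884, 9937, 8135, 7139 and 7829.7 normalized counts in the midlife chm/+ libraries, against 4425 to 6707 (median 4839) in the young chm/+ libraries. bmm rose without overlap of the ages, by a log2 fold change of 0.73 ± 0.15 (SE, adjusted p = 0.00188). AkhR, the receptor of the hormone that mobilizes fat, averaged 3143 ± 492 normalized counts at midlife and 4588 ± 568 in young chm/+ heads (SD, n = 5 and 6), at a log2 fold change of -0.55 ± 0.12 (SE, adjusted p = 0.00375). mag, a digestive lipase known from the gut, had 82.5, 116, 152, 110.1 and 26 normalized counts in the midlife chm/+ libraries, against 0.426 to 23.5 (median 15.4) in the young chm/+ libraries. mag rose without overlap of the ages, by a log2 fold change of 1.89 ± 0.39 (SE, adjusted p = 0.00196). The amylase genes Amy-p and Amy-d, near-identical copies, rose by a log2 fold change of 1.33 ± 0.21 (SE, adjusted p = 0.000236) and 1.34 ± 0.22 (SE, adjusted p = 0.000265).

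Detoxification enzymes rose in part. Cytochrome P450 enzymes oxidize toxins, hormones and lipids. Of 75 measured genes 20 rose and 4 fell, against 8.63% and 7.36% of all genes, and the median was 0.18 (0.18 and 0.13 within the column sets). With the block 10 of the 20 stayed called. Cyp4d1 had 337, 428, 379, 197 and 281 normalized counts in the midlife chm/+ libraries, against 16.1 to 40.0 (median 34.7) in the young chm/+ libraries. The ages were far apart, at a log2 fold change of 2.86 ± 0.19 (SE, adjusted p = 1.31e-08). Cyp312a1 rose by a log2 fold change of 1.15 ± 0.12 (SE, adjusted p = 1.71e-06), Cyp309a2 by 0.70 ± 0.10 (SE, adjusted p = 8.97e-05) and Cyp6a14 by 1.17 ± 0.20 (SE, adjusted p = 0.000505), while Cyp4c3 fell with -0.63 ± 0.09 (SE, adjusted p = 0.000107) and Cyp305a1 with -0.71 ± 0.11 (SE, adjusted p = 0.000227). Cyp4g1, which makes cuticular hydrocarbons in oenocytes, varied widely between libraries and was not called (log2 fold change 2.75, adjusted p = 0.0848).

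Glutathione transferases couple toxins to glutathione. Of 30 genes 3 rose and 3 fell (median 0.10). GstD5 had 173, 74.1, 308, 11.1 and 88.5 normalized counts in the midlife chm/+ libraries, against 0 to 6.84 (median 2.74) in the young chm/+ libraries, of which CHMy12 was listed at 0. The ages did not overlap, CHMo12 had the lowest midlife value, and the log2 fold change was 2.59 ± 0.47 (SE, adjusted p = 0.000673). GstD2 rose by a log2 fold change of 1.42 ± 0.28 (SE, adjusted p = 0.00149). GstE14, known from larvae for its part in ecdysteroid synthesis, had 932, 905, 699.9, 845 and 788 normalized counts in the midlife chm/+ libraries, against 1338 to 1655 (median 1524) in the young chm/+ libraries. GstE14 fell without overlap of the ages, with a log2 fold change of -0.85 ± 0.08 (SE, adjusted p = 3.24e-07), and GstE13 fell with -0.68 ± 0.08 (SE, adjusted p = 9.55e-06). None of the 10 UDP-glycosyltransferase genes was called. Of 18 antioxidant genes 2 rose and 1 fell, and all 3 calls were lost without single libraries: Gclm without CHMo2, CHMo3, CHMy2, CHMy3, CHMy4, CHMo12 or CHMo5 (highest adjusted p = 0.0653), cnc without CHMo3, CHMy2, CHMy3, CHMy4, CHMo12 or CHMo5 (0.103) and Prx2540-1 without CHMo2, CHMo3, CHMy3, CHMy4, CHMo11, CHMo5, CHMy1 or CHMy12 (0.144).

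Among 28 heat shock and chaperone genes 9 rose and 3 fell (median 0.11). Of the 9, 6 are copies of Hsp70 that share nearly all their sequence, so they count as 1 observation. Hsp70Ab had 2649.8, 2412, 1399.9, 2045 and 1137 normalized counts in the midlife chm/+ libraries, against 553 to 1480.5 (median 966) in the young chm/+ libraries. Hsp70Ab rose by a log2 fold change of 0.98 ± 0.30 (SE, adjusted p = 0.0324). l(2)efl, a small heat shock protein, had 1584, 1204, 938, 568 and 766 normalized counts in the midlife chm/+ libraries, against 395 to 752 (median 489) in the young chm/+ libraries. l(2)efl rose by a log2 fold change of 0.87 ± 0.26 (SE, adjusted p = 0.0264). In both genes the ages overlapped. Neither call held in all fits that left out 1 library, with a highest adjusted p of 0.0916 for Hsp70Ab (without CHMo2, CHMo3, CHMy3, CHMo12, CHMy11 or CHMy12) and 0.0870 for l(2)efl (without CHMo2, CHMo3, CHMy4, CHMo11, CHMy11 or CHMy12). The small heat shock genes Hsp67Bc and Hsp67Ba fell with a log2 fold change of -0.99 ± 0.11 (SE, adjusted p = 4.89e-06) and -0.67 ± 0.11 (SE, adjusted p = 0.000220). Of 22 autophagy genes 3 rose and none fell, none with a call under the block (adjusted p = 0.0504 for Atg2, 0.161 for ref(2)P and 0.130 for Atg17). In the proteasome, 1 of 34 genes was called: Rpt4R fell with a log2 fold change of -0.62 ± 0.10 (SE, adjusted p = 0.000227), with an adjusted p of 0.0522 under the block.

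Of the chromatin and cell cycle lists, 3 genes were called: SMC2, Cdc6 and HP1b. SMC2, a core subunit of condensin, which compacts chromosomes, had 1837, 1933, 2349, 1719 and 1507 normalized counts in the midlife chm/+ libraries, against 317 to 674 (median 561) in the young chm/+ libraries. All midlife libraries stood above all young ones, at a log2 fold change of 1.81 ± 0.15 (SE, adjusted p = 1.35e-07), with 2.12 in the first and 1.51 in the second column set. The other 15 condensin and cohesin genes were not called. Cdc6, which loads the replicative helicase at origins, had 25.8, 27.7, 21.4, 24.4 and 26.6 normalized counts in the midlife chm/+ libraries, against 92.5 to 322 (median 243) in the young chm/+ libraries. Cdc6 fell without overlap of the ages, with a log2 fold change of -2.50 ± 0.29 (SE, adjusted p = 7.11e-06), while the other 18 replication licensing genes were not called. Of 25 Polycomb and heterochromatin genes, HP1b alone was called, and it fell with a log2 fold change of -0.28 ± 0.06 (SE, adjusted p = 0.00154), with an adjusted p of 0.0570 under the block. The 7 dosage compensation genes were not called. In the JNK pathway 2 of 15 genes rose, Mmp1 by a log2 fold change of 0.42 ± 0.10 (SE, adjusted p = 0.00731) and puc by 0.31 ± 0.09 (SE, adjusted p = 0.0151), neither called with the block (adjusted p = 0.128 and 0.119), and puc was not called without CHMo5 (adjusted p = 0.0525).

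Tetraspanins are multi-pass membrane proteins that organize other proteins in the membrane. Of 29 genes found by symbol pattern 8 rose and 2 fell (median 0.12), and all 8 that rose belong to the Tsp42E gene cluster on arm 2R, of which 16 members were measured. The pattern missed TM4SF, also a tetraspanin gene, which fell with a log2 fold change of -0.81 ± 0.07 (SE, adjusted p = 2.65e-07). Tsp42Eb had 329, 419, 294, 38.7 and 594 normalized counts in the midlife chm/+ libraries, against 27.3 to 56.7 (median 48.6) in the young chm/+ libraries. CHMo12 lay within the young range and the other 4 midlife libraries far above it, at a log2 fold change of 2.19 ± 0.43 (SE, adjusted p = 0.00135). Tsp42Ed rose by a log2 fold change of 1.16 ± 0.19 (SE, adjusted p = 0.000299), Tsp42Eh by 0.78 ± 0.11 (SE, adjusted p = 4.07e-05) and Tsp42Ei by 0.53 ± 0.08 (SE, adjusted p = 0.000181), while Tsp42Ej of the same cluster fell with -0.68 ± 0.11 (SE, adjusted p = 0.000277). Of the 6 actin genes, Act57B rose by a log2 fold change of 0.68 ± 0.16 (SE, adjusted p = 0.00568), and none of 16 other sarcomere genes was called. Of 10 basement membrane genes 1 rose and 2 fell, none of them with a call under the block. In the circadian clock 1 of 17 genes was called: Pdfr, the receptor of the clock neuropeptide PDF, fell with a log2 fold change of -0.25 ± 0.05 (SE, adjusted p = 0.00364), with an adjusted p of 0.133 under the block.

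Several of the most strongly changed genes carry only an identifier in the table. CG30091 had 114, 154, 201, 68.1 and 104 normalized counts in the midlife chm/+ libraries, against 0 to 8.44 (median 2.46) in the young chm/+ libraries, of which CHMy12 was listed at 0. CG30091 rose by a log2 fold change of 2.94 ± 0.20 (SE, adjusted p = 1.31e-08). CG10383 had 2127, 2301, 2123, 1666 and 2207 normalized counts in the midlife chm/+ libraries, against 723 to 941 (median 864) in the young chm/+ libraries. CG10383 rose by a log2 fold change of 1.28 ± 0.09 (SE, adjusted p = 1.31e-08). CG33093 averaged 482 ± 142 normalized counts at midlife and 36.3 ± 26.3 in young chm/+ heads (SD, n = 5 and 6), at a log2 fold change of 3.35 ± 0.26 (SE, adjusted p = 4.05e-08). In each of these rising genes no midlife library overlapped a young one. Among the falling genes, CG11458 had 0.0117, 2.05, 0.906, 2.11 and 3.15 normalized counts in the midlife chm/+ libraries, against 56.5 to 145 (median 90.7) in the young chm/+ libraries. CG11458 fell with a log2 fold change of -2.66 ± 0.20 (SE, adjusted p = 4.05e-08), so that it was near 0 at midlife. CG11349 had 69.1, 70.9, 117, 69 and 79.7 normalized counts in the midlife chm/+ libraries, against 292 to 583 (median 460.1) in the young chm/+ libraries. CG11349 fell with a log2 fold change of -2.29 ± 0.16 (SE, adjusted p = 1.61e-08), also without overlap. GAPsec, a named gene outside the lists, fell with a log2 fold change of -0.99 ± 0.08 (SE, adjusted p = 8.85e-08). Over the chromosome arms, calls were spread as follows: 166 rose and 126 fell of 1726 genes on 2L, 227 and 129 of 1945 on 2R, 123 and 174 of 1828 on 3L, 232 and 176 of 2371 on 3R, and 76 and 110 of 1606 on X. Of 86 genes on chromosome 4, 1 rose. Of 220 genes whose symbols mark noncoding RNAs, 23 rose and 7 fell. Over all genes tested, on every arm together, 8.63% rose and 7.36% fell.

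The change with age in chm/+ heads was set against that in wild-type heads by testing the difference itself. It was called for 35 genes, 0.356% of those tested, with 655 at an unadjusted p under 0.05. In 33 of the 35 the change was lower in chm/+ than in wild type and in 2 it was higher. Of 428 genes called in chm/+ and not in wild type, 2 had a called difference. SMC2 was one of the genes with a higher change: its log2 change was 1.81 in chm/+ and 0.42 in wild type, a difference of 1.39 ± 0.23 (SE, adjusted p = 0.00826), and its values were 258 to 334 normalized counts in midlife and 198 to 234 in young wild-type heads. NimC4 had a log2 change of 1.78 in chm/+ (adjusted p = 0.0836 with the block) and 5.01 in wild type, a difference of -3.23 ± 0.55 (SE, adjusted p = 0.00933). For Jhe these log2 changes were 1.26 in chm/+ (adjusted p = 0.103 with the block, and at most 0.0822 without CHMo2, CHMo3 or CHMo5) and 4.20 in wild type, a difference of -2.94 ± 0.55 (SE, adjusted p = 0.0169). CG43175 had a log2 change of 2.09 in chm/+ (adjusted p = 0.0637 with the block) and 6.35 in wild type, a difference of -4.26 ± 0.67 (SE, adjusted p = 0.00699). For PPO1 the log2 changes of -3.37 in chm/+ and -0.33 in wild type had no called difference (adjusted p = 0.0618). The number of called differences was 19 without the wild-type library 2uo4, 22 without CHMo2 and 66 without CHMo5.

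**Figure D5:**
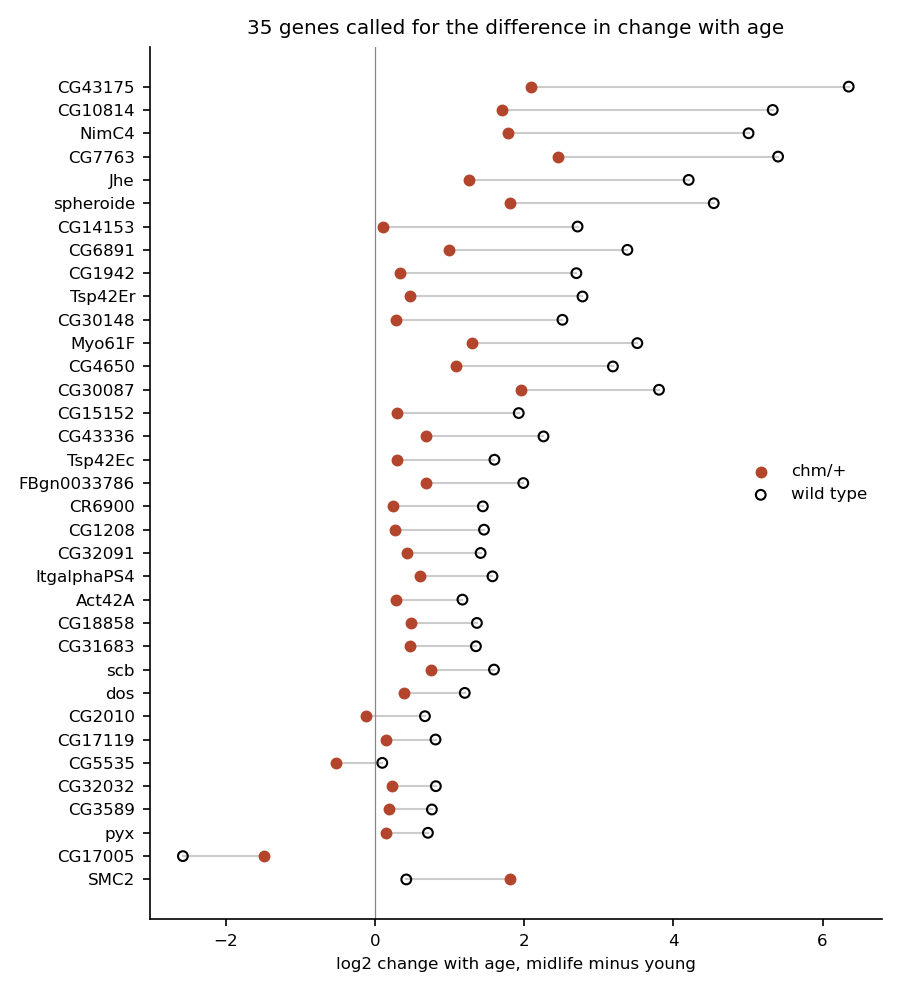
Log2 change with age (x axis, midlife minus young) in chm/+ (filled red) and in wild type (open black) for the 35 genes whose difference between the genotypes was called, ordered by that difference. In 33 genes the chm/+ point lies to the left of the wild-type point, and SMC2 and CG17005 are the 2 in which it lies to the right.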

How the data were processed

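The deposited table gives, for 9831 genes in 20 libraries, a signal that the authors made from read counts by normalization, per the file headers and the labels; the submitters' processing notes name TopHat2 (2.0.5), edgeR and the BDGP release 5 genome. Not given in the sources used here are the counter, the annotation, the strand setting and any filter on low values. Libraries were made from polyadenylated RNA and read as 50 bp single reads, per the labels' protocols. Low values fell on whole multiples of 1 read in 3 libraries only (tolerance 0.1), so reads were not recovered, no count model was run and depth is unknown. Samples were grouped by column name; the columns name a group and a number and are not tied to single samples. Nothing in the labels says that the libraries came from separate populations of flies, so p-values measure the spread between these libraries.

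The main test was limma (3.58.1, in R 4.3.3) on log2 of value plus 14.48, which is 0.5 CPM at the mean column total, with a mean for each of the 4 groups over all 20 libraries and a mean-variance trend. Genes with at least 1 CPM in 4 libraries were tested, which removed 0 genes. Tests were two-sided, with Benjamini-Hochberg adjustment over all 9831 genes, and a gene was called at an adjusted p under 0.05. The code was tested on simulated data.

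For same-numbered chm/+ columns, the Pearson r of deviations from the group means was 0.635, 0.204, 0.165 and 0.357 for numbers 2, 3, 11 and 12. The numbers were taken to pair the libraries. Each pair also lies in 1 column set, so these values cannot tell pairing from column set, and the pairing is an assumption. Alternatives were other addends, scalings and filters, array weights, chm/+ libraries alone, the column set as a term or each set alone, the block, and leaving out each library.

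The members, the 53 gene lists and the tests were chosen with earlier results of these data known. Genes to name were selected by a rule. It took chm and the 15 called genes with the highest and the 15 with the lowest log2 change. It also took the 10 called genes with the smallest p in each direction. From each list it took the 4 smallest-p called members, the highest and the lowest member, and all members of lists of up to 8. Last came the 5 called genotype differences furthest from 0 in each direction. Some genes so selected are not described above, among them Dpt, CG8100, CG8147, CG6733, CG4476 and CG5653. Genes named outside the rule, such as list members given as not called, were chosen after their values were seen. Lists were described by counts and medians, with no set test.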

Additional observations from a re-analysis of the deposited data

Results flagged for a closer look

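In 7 of 124 sets of values (62 genes, midlife and young chm/+ libraries apart) 1 library stood far from the others of its group; chance gives about 1 set in 20. Among midlife libraries, CG10383 had 1666.3 normalized counts in CHMo12 and 2123 to 2301 in the others, CG11349 had 116.9 in CHMo11 and 69.0 to 79.7 in the others, and Pdh had 15442.7 in CHMo5 and 21234 to 23316 in the others. Among young libraries, AttC had 2575.6 in CHMy4 and 766 to 1143 in the others, TotM had 703.3 in CHMy4 and 86.9 to 144 in the others, bmm had 6706.8 in CHMy1 and 4425 to 5155 in the others, and ple had 1321.9 in CHMy2 and 1529 to 1633 in the others. For CG10383, CG11349, Pdh, AttC, bmm and ple the ages did not overlap in spite of the outlying library. For TotM the midlife library CHMo12 (137) lay within the young range.

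For 8 of the 35 genes with a called difference, those that the naming rule selects, the log2 change with age in chm/+ differed from that in wild type by the test of the difference. It was lower in chm/+ for CG43175 (-4.26 relative to wild type), CG10814 (-3.64), NimC4 (-3.23), CG7763 (-2.96), Jhe (-2.94) and Act42A (-0.89). It was higher in chm/+ for SMC2 (1.39) and CG17005 (1.08). CG17005 fell with age in both genotypes, by less in chm/+ (log2 change -1.495) than in wild type (-2.579). SMC2 was also higher in chm/+ than in wild type within each age, by a log2 difference of 2.59 at midlife and 1.20 in young heads. The labels do not give the origin of the lines, so chm dose and other differences between the genotypes cannot be told apart.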

How the results depend on the processing

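None of the 180 called genes that the naming rule selects or that were chosen for display changed direction under any alternative. All alternatives used these same libraries or a part of them. The count of 1572 called genes was 1198 to 2290 under other addends, scalings, filters, array weights, chm/+ libraries alone and the column set as a term, and 1237 to 1740 when 1 library was left out. The second column set alone gave 365 calls (205 rose, 160 fell), the 4 paired columns with a replicate block 844 (483 rose, 361 fell) and the same columns with no replicate block 574 (318 rose, 256 fell). Array weights gave 1103 genes that fell. These fits differ in the number of libraries, and the cause of the other shifts was not tested.

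Differences from wild type numbered 22 under a filter of 5 CPM in 5 libraries, 100 with array weights, 69 in the first and 1 in the second column set, and 19 to 66 when 1 library was left out. Antimicrobial peptides that rose were 8 in the first column set alone. Peptidoglycan recognition proteins that rose were 3 in the second set and 4 in the paired columns without block. Cuticle proteins that fell were 7 under the stricter filter, which tested fewer genes, 8 in the second set, and 11 with and 10 without the block. Oxidative phosphorylation genes that fell were 19 with the set as a term, 2 in the second set, 3 in the paired columns without block, 5 without CHMy2 and CHMo12 together, an alternative chosen after seeing the data, and 6 to 14 without 1 library. Mitochondrial ribosomal protein genes that fell were 8 with chm/+ libraries alone, 3 in the first and 2 in the second set, 3 with and 1 without the block, 8 without CHMy2 and CHMo12, and 7 to 14 without 1 library. Cytochrome P450 genes that rose were 11 under the stricter filter, 6 in the second set, and 11 with and 9 without the block. In the fit with the block, with pairs from the column numbers, 52 of these 180 genes were not called. In the same paired columns without the block 68 were not called. The log2 fold change of chm stayed between 0.02 and 0.10 and was not called under any alternative. Depth is unknown, so no limit from read sampling can be given for low values.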
